A study of Pyronema omphalodes CBS 100304 with 9 samples.

Results

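The mating-type and pheromone receptor genes of the ascomycete Pyronema omphalodes (also known as Pyronema confluens) were followed in 9 RNA-seq libraries. They are 5 gene models of 13369, chosen by locus tag from the product descriptions of the deposited annotation: a MAT1-1-1 mating-type gene (PCON_07491), a gene for mating-type protein a-1 (PCON_08389), a pheromone alpha-factor receptor gene (PCON_02097), a pheromone B alpha 3 receptor gene (PCON_08875) and a pheromone receptor transcription factor gene (PCON_08725). These names rest on similarity to proteins of other fungi.

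All libraries were from strain CBS 100304. Protoapothecia, the young fruiting bodies, grew for 4 d at 25 °C on slides with 150 µl of WPC medium and 0.8% agar, were fixed in ethanol, cut out by laser and sequenced from linearly amplified RNA. Their libraries, A, B and C, are independent biological replicates. Sexual mycelium (libraries 1 and 2) was surface culture in WPC under constant light, and vegetative mycelium (1 and 2) was surface culture in WPC in constant darkness. Both pooled RNA of days 3, 4 and 5. The vegetative pool (1 and 2) mixed RNA of 3 d old cultures that had grown submerged in WPC, in constant light or darkness, or on the surface of BMM medium in darkness. The 6 mycelium libraries came from an earlier study and were not microdissected. Their labels call each library part of a pair of technical replicates of its numbered sample. They do not state that libraries 1 and 2 were separate cultures. The p-values below thus measure the spread between libraries, which may be technical there. The light condition of the slides is not stated. In every comparison of protoapothecia with mycelium, tissue, light, amplification and study cannot be told apart. Light and sexual development cannot be told apart in sexual against vegetative mycelium. Sexual mycelium and the pool also differed in submergence, medium and days of growth. Fewer cells of a type and less RNA per cell cannot be told apart in bulk RNA.

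In filamentous ascomycetes, mating-type genes encode transcription factors that define sexual identity and govern fertilization and fruiting body development. MAT1-1-1 proteins carry an alpha-box DNA-binding domain, and mating-type protein a-1, named after the Neurospora crassa protein, carries a high mobility group (HMG) box. A homothallic fungus such as Pyronema is self-fertile and holds both kinds of gene in the same genome. In yeast and filamentous ascomycetes, each of a pair of peptide pheromones is bound by a G protein-coupled receptor in the plasma membrane, a Ste2 type for alpha-factor-like peptides and a Ste3 type for lipid-modified ones. The signal passes through a heterotrimeric G protein and a MAP kinase cascade to transcription factors such as Ste12 and, in Saccharomyces cerevisiae, the MADS-box protein Mcm1, to which the pheromone receptor transcription factor gene is similar.

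The deposited annotation placed the 5 genes on 5 scaffolds. MAT1-1-1 lay on the plus strand of scaffold 329 at positions 5434 to 7496, with 3 exons, an mRNA of 1879 bases and a protein of 341 residues, and had no Pfam domain above the annotation's threshold. The a-1 gene lay on the plus strand of scaffold 381 at 101261 to 102611, with 4 exons, 1194 bases of mRNA and 275 residues, and carried the HMG_box domain, which 8 of the 13369 models had. The alpha-factor receptor gene lay on the minus strand of scaffold 1205 at 180398 to 181742, with 2 exons, 1266 bases and 391 residues. It was the 1 model of 13369 with the STE2 domain. The B alpha 3 receptor gene, named after a receptor of the basidiomycete Schizophyllum commune, lay on the minus strand of scaffold 398 at 59167 to 60635, with 3 exons, 1371 bases and 408 residues. It was the 1 model with the STE3 domain. The transcription factor gene lay on the minus strand of scaffold 392 at 22304 to 24970, with 7 exons, 1964 bases and 251 residues, and was 1 of 2 models with the SRF-TF (MADS-box) domain. None of the 5 overlapped another gene model, and all 5 had the same start and end in the RefSeq gene table.

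Levels are CPM values: counts were divided by library totals that had been corrected with TMM factors, which adjust for differences in library composition. Library totals ranged from 5583951 counts in protoapothecia B to 24803660 in protoapothecia C, and the other 7 had 14265890 to 24494613. A gene with 3 counts had 0.642 CPM in the shallowest library and 0.112 to 0.202 CPM in the others. Log2 fold changes and adjusted p-values are from edgeR's quasi-likelihood test over all 11787 genes that passed a filter on low counts, with Benjamini-Hochberg adjustment, and a gene was called at an adjusted p below 0.05. All 5 genes passed the filter.

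**Figure D1:**
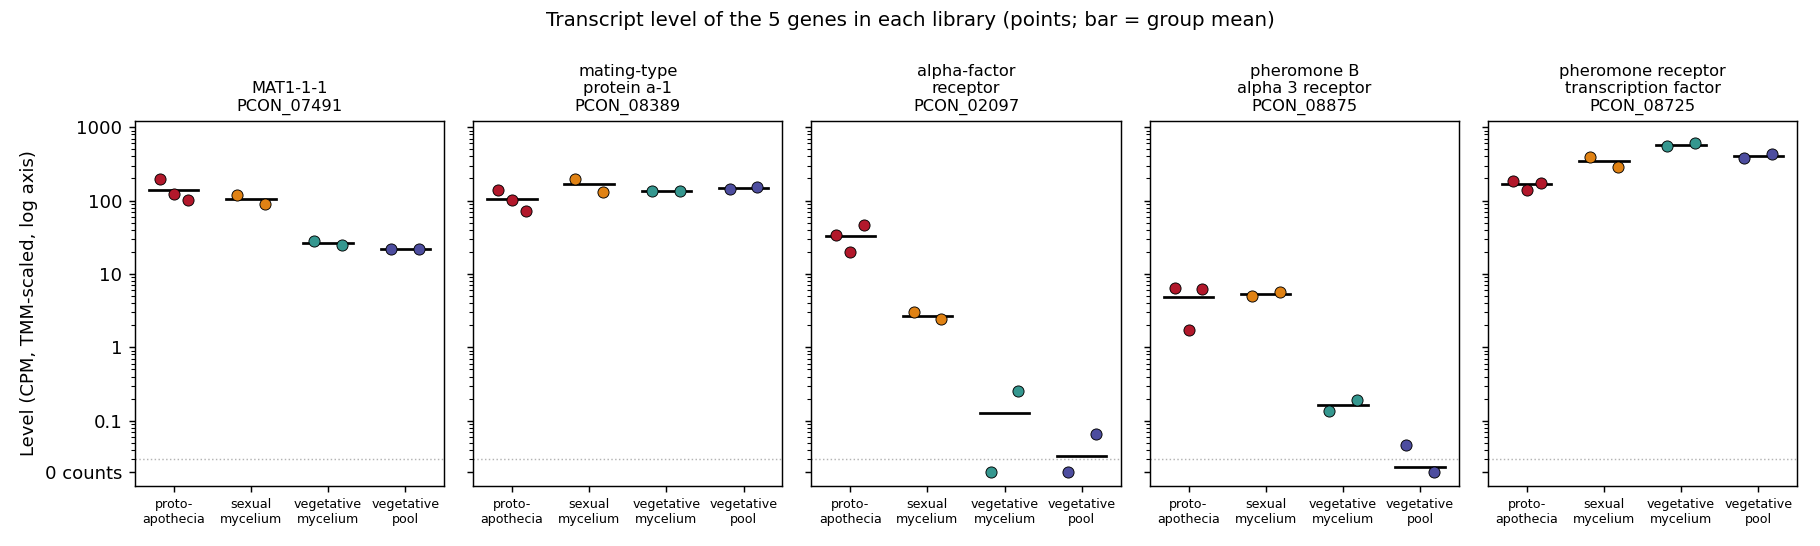
Level of each gene in each library (y axis: CPM on a log axis, with libraries at 0 counts drawn below the dotted line) by group (x axis), in 1 panel per gene. Points are libraries and bars are group means. MAT1-1-1 and both receptor genes were lower in both vegetative groups than in protoapothecia and sexual mycelium, the a-1 gene stayed between 72.8 and 199 CPM, and the transcription factor gene was lowest in protoapothecia.

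The MAT1-1-1 gene was expressed in all 9 libraries, and more strongly in protoapothecia and sexual mycelium than in the vegetative groups. It had 194, 122 and 103 CPM in protoapothecia A, B and C. It had 119 and 90.6 CPM in sexual mycelium, 27.9 and 25 CPM in vegetative mycelium, and 21.6 and 22.1 CPM in the vegetative pool. The lowest library of protoapothecia or sexual mycelium stood above the highest vegetative library, while the ranges of protoapothecia and sexual mycelium overlapped. Means were 140 ± 48.4 CPM in protoapothecia (SD, n = 3), 105 ± 19.9 in sexual mycelium, 26.4 ± 2.07 in vegetative mycelium and 21.9 ± 0.33 in the vegetative pool (SD, n = 2 each). MAT1-1-1 was 5.29-fold higher in protoapothecia than in vegetative mycelium (log2 fold change 2.40 ± 0.314 SE, edgeR adjusted p = 0.000123) and 6.39-fold higher than in the vegetative pool (2.68 ± 0.318, edgeR adjusted p = 7.16e-05). Sexual mycelium was 3.96-fold above vegetative mycelium (1.98 ± 0.324, edgeR adjusted p = 0.00161) and 4.78-fold above the pool (2.26 ± 0.327, edgeR adjusted p = 0.000917). Protoapothecia and sexual mycelium differed by a log2 fold change of 0.42 with a 95% interval of -0.23 to 1.06, which did not pass the test (edgeR adjusted p = 0.232). The vegetative groups did not overlap, but their difference did not pass either (0.27, edgeR adjusted p = 0.745).

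The a-1 mating-type gene was expressed in all 9 libraries, between 72.8 and 199 CPM, and no difference between groups passed the test. It had 140, 102 and 72.8 CPM in protoapothecia A, B and C, 199 and 132 CPM in sexual mycelium, 133 and 134 CPM in vegetative mycelium, and 144 and 155 CPM in the vegetative pool. Protoapothecia overlapped sexual and vegetative mycelium, and lay just below the pool. Group means were 105 ± 33.8 CPM in protoapothecia (SD, n = 3), 166 ± 47.3 in sexual mycelium, 134 ± 0.737 in vegetative mycelium and 150 ± 7.6 in the pool (SD, n = 2 each). The comparison nearest to the threshold was protoapothecia against sexual mycelium, with a log2 fold change of -0.66, a 95% interval of -1.31 to -0.01 and an edgeR adjusted p of 0.0739. Without protoapothecia A, the protoapothecium library with the highest level, the gene was called lower than in sexual mycelium (-0.90, edgeR adjusted p = 0.0243) and than in the vegetative pool (-0.75, edgeR adjusted p = 0.0418).

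The ratio of MAT1-1-1 to a-1 was highest in protoapothecia and lowest in the vegetative groups. Per kb of mRNA, the log2 ratio of MAT1-1-1 to a-1 counts within a library was -0.18, -0.40 and -0.16 in protoapothecia A, B and C, and -1.40 and -1.20 in sexual mycelium. It was -2.91 and -3.08 in vegetative mycelium and -3.39 and -3.47 in the vegetative pool. The 4 groups did not overlap. For levels of single genes, 59% to 78.8% of genes tested did not overlap, depending on the comparison. No such share was taken for ratios. A ratio within a library does not depend on how libraries are scaled. Between protoapothecia and mycelium, tissue, light, amplification and study still cannot be told apart. As ratios of levels per kb of mRNA, MAT1-1-1 stood at 0.758 to 0.897 of a-1 in protoapothecia, and at 0.379 and 0.435 in sexual mycelium. The ratios were 0.133 and 0.118 in vegetative mycelium, and 0.0952 and 0.0905 in the pool. Per kb of coding sequence, means in protoapothecia were 137 CPM for MAT1-1-1 and 127 CPM for a-1. Which gene stood higher in protoapothecia thus depends on the annotated UTRs, while a-1 stayed above MAT1-1-1 in the mycelium groups. Protoapothecia exceeded sexual mycelium by 1.05 on the log2 scale, vegetative mycelium by 2.75 and the pool by 3.18. For each of these, an exact permutation test over libraries gave a two-sided p of 0.2, the smallest that 3 against 2 libraries allow. Sexual mycelium exceeded vegetative mycelium by 1.69 and the pool by 2.13, and the vegetative groups differed by 0.43, each with an exact permutation p of 0.333, the smallest that 2 against 2 libraries allow.

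**Figure D2:**
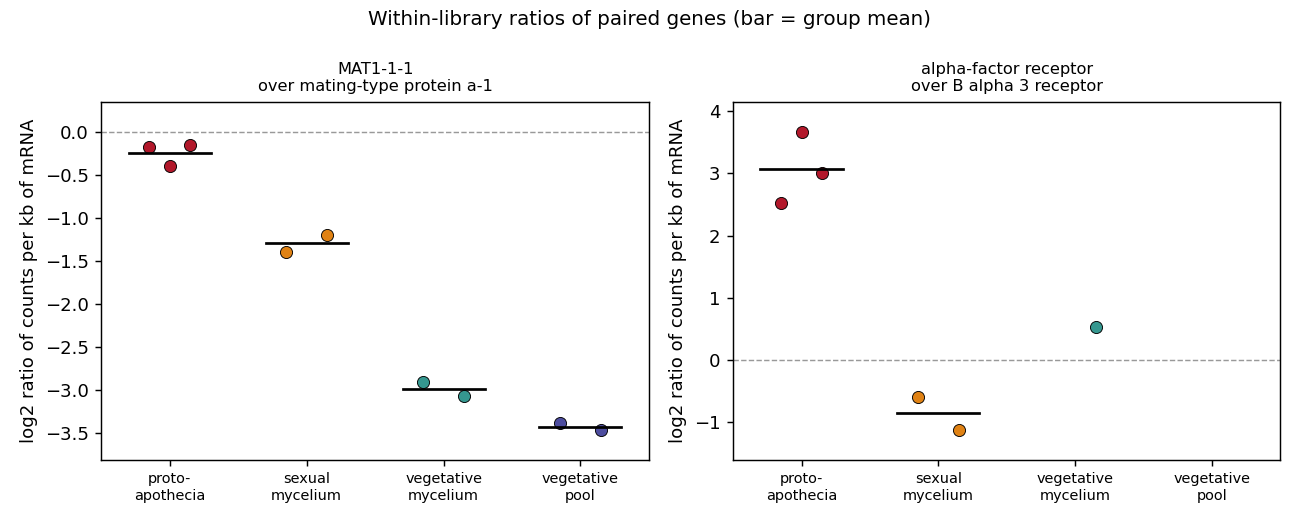
Log2 ratio of counts per kb of mRNA within each library (y axis) by group (x axis), for MAT1-1-1 over mating-type protein a-1 (left) and for the alpha-factor receptor over the B alpha 3 receptor (right). Points are libraries, bars are means of groups in which every library has a ratio, and the dashed line marks equal levels per kb of mRNA. The left ratio is near 0 in protoapothecia and between -3.47 and -2.91 in the vegetative groups; the right ratio is above 2.5 in protoapothecia and below 0 in sexual mycelium, its 1 vegetative point rests on 4 and 3 counts, and the other 3 vegetative libraries had a gene at 0 counts.

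The alpha-factor receptor gene was higher in protoapothecia than in any mycelium group, and nearly absent from the vegetative libraries. It had 34, 20.1 and 45.9 CPM in protoapothecia A, B and C (682, 94 and 928 counts), against 3.02 and 2.4 CPM in sexual mycelium (63 and 64 counts). In vegetative mycelium it had 0 and 4 counts, and in the vegetative pool 0 and 1 counts, which is at most 0.258 CPM in any of these 4 libraries. No protoapothecium library overlapped any mycelium library, and both sexual mycelium libraries lay above all 4 vegetative ones. The mean was 33.3 ± 12.9 CPM in protoapothecia (SD, n = 3) and 2.71 ± 0.44 CPM in sexual mycelium (SD, n = 2), a 12.3-fold difference (log2 fold change 3.62 ± 0.665 SE, edgeR adjusted p = 0.00126). Against the vegetative groups the fold rests on few counts. Over summed counts, scaled by library size, protoapothecia exceeded vegetative mycelium by a ratio of 287 (exact 95% counting interval 112 to 1060) and the vegetative pool by a ratio of 1380 (248 to 54600). The same ratios for sexual mycelium were 20.3 (7.72 to 75.5) and 97.4 (17.2 to 3880). These intervals cover counting error only. All 4 differences were called, with edgeR adjusted p = 5.57e-05 and 3.61e-05 for protoapothecia against vegetative mycelium and the pool, and 0.00554 and 0.00214 for sexual mycelium against them.

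The B alpha 3 receptor gene was low throughout, higher in protoapothecia and sexual mycelium than in the vegetative groups, and not called between protoapothecia and sexual mycelium. It had 6.42, 1.71 and 6.23 CPM in protoapothecia A, B and C (129, 8 and 126 counts) and 4.94 and 5.66 CPM in sexual mycelium (103 and 151 counts). In vegetative mycelium it had 2 and 3 counts and in the vegetative pool 1 and 0 counts, at most 0.194 CPM. Protoapothecia spread to both sides of sexual mycelium, with the shallow library B lowest, and all 5 of these libraries lay above the 4 vegetative ones. Protoapothecia averaged 4.79 ± 2.67 CPM (SD, n = 3) and sexual mycelium 5.3 ± 0.509 CPM (SD, n = 2). Their log2 fold change of -0.10 had a 95% interval of -1.39 to 1.19 (edgeR adjusted p = 0.888). The sign was positive with the RLE and DESeq2 scalings (0.04 and 0.03) and without protoapothecia B (0.27). Over summed counts, protoapothecia exceeded vegetative mycelium by a ratio of 35.5 (exact 95% counting interval 15 to 110) and the pool by 213 (37.9 to 8450), and sexual mycelium exceeded them by 32.4 (13.7 to 101) and 195 (34.7 to 7730). All 4 were called, with edgeR adjusted p = 0.000556 and 0.000176 for protoapothecia against vegetative mycelium and the pool, and 0.00188 and 0.000751 for sexual mycelium.

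Within a library, the alpha-factor receptor stood above the B alpha 3 receptor in protoapothecia and below it in sexual mycelium. Per kb of mRNA their log2 ratio was 2.52, 3.67 and 3.00 in protoapothecia A, B and C, against -0.59 and -1.12 in sexual mycelium. That is a ratio of levels per kb of 5.73 to 12.7 in protoapothecia, against 0.662 and 0.459 in sexual mycelium. The groups differed by 3.92 on the log2 scale, with a two-sided exact permutation p of 0.2, the smallest that 3 against 2 libraries allow. The vegetative libraries had at most 4 counts of either gene, too few to compare this ratio.

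The pheromone receptor transcription factor gene ran the other way and was lowest in protoapothecia. It had 184, 138 and 176 CPM in protoapothecia A, B and C, 395 and 286 CPM in sexual mycelium, 546 and 607 CPM in vegetative mycelium, and 385 and 431 CPM in the vegetative pool. All 3 protoapothecium libraries lay below all 6 mycelium libraries, and sexual mycelium overlapped the pool. Protoapothecia averaged 166 ± 24.3 CPM (SD, n = 3), sexual mycelium 340 ± 77.4, vegetative mycelium 576 ± 42.9 and the pool 408 ± 32.2 (SD, n = 2 each). The level in protoapothecia was 0.488 of that in sexual mycelium (log2 fold change -1.03 ± 0.223 SE, edgeR adjusted p = 0.00309), 0.288 of that in vegetative mycelium (-1.79 ± 0.224, edgeR adjusted p = 9e-05) and 0.407 of that in the pool (-1.30 ± 0.223, edgeR adjusted p = 0.000669). Sexual mycelium was called below vegetative mycelium only narrowly (-0.76 ± 0.249, edgeR adjusted p = 0.0459), and 5 of 14 other settings kept that call, with adjusted p from 0.00348 to 0.281. It was lost without protoapothecia A, either sexual mycelium library, either vegetative mycelium library or either pool library. The differences between sexual mycelium and the pool (-0.26, edgeR adjusted p = 0.498) and between vegetative mycelium and the pool (0.50, edgeR adjusted p = 0.34) did not pass the test.

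Set side by side per kb of mRNA, the 2 receptor genes lay below the other 3 genes in every group. In protoapothecia the a-1 gene (88 ± 28.3 CPM per kb), the transcription factor gene (84.6 ± 12.4) and MAT1-1-1 (74.3 ± 25.8) lay within each other's spread, above the alpha-factor receptor (26.3 ± 10.2) and the B alpha 3 receptor (3.49 ± 1.95). The median over the tested genes was 11.7 CPM per kb there. In sexual mycelium the order was the transcription factor gene (173 ± 39.4), the a-1 gene (139 ± 39.6), MAT1-1-1 (55.7 ± 10.6), the B alpha 3 receptor (3.87 ± 0.372) and the alpha-factor receptor (2.14 ± 0.348), with a median of 14.6 CPM per kb over the tested genes. In both vegetative groups the transcription factor gene led (294 ± 21.8 CPM per kb in vegetative mycelium and 208 ± 16.4 in the pool), followed by a-1 (112 ± 0.617 and 125 ± 6.36) and MAT1-1-1 (14.1 ± 1.1 and 11.6 ± 0.175), and both receptors were at or below 0.12 CPM per kb. MAT1-1-1 was thus near the medians over the tested genes, 12 CPM per kb in vegetative mycelium and 12.8 in the pool. Per kb of coding sequence in place of mRNA, which leaves out the annotated UTRs, the order of the upper 3 genes in protoapothecia was another (221 for the transcription factor gene, 137 for MAT1-1-1 and 127 for a-1). As a rank among the 13369 models, MAT1-1-1 lay per kb at or above 80.8% to 88.9% of models in protoapothecia. In the vegetative libraries its rank was 54.4% to 59.5%. The alpha-factor receptor lay at or above 63.8% to 74.3% of models in protoapothecia and 28.7% and 25.1% in sexual mycelium.

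**Figure D3:**
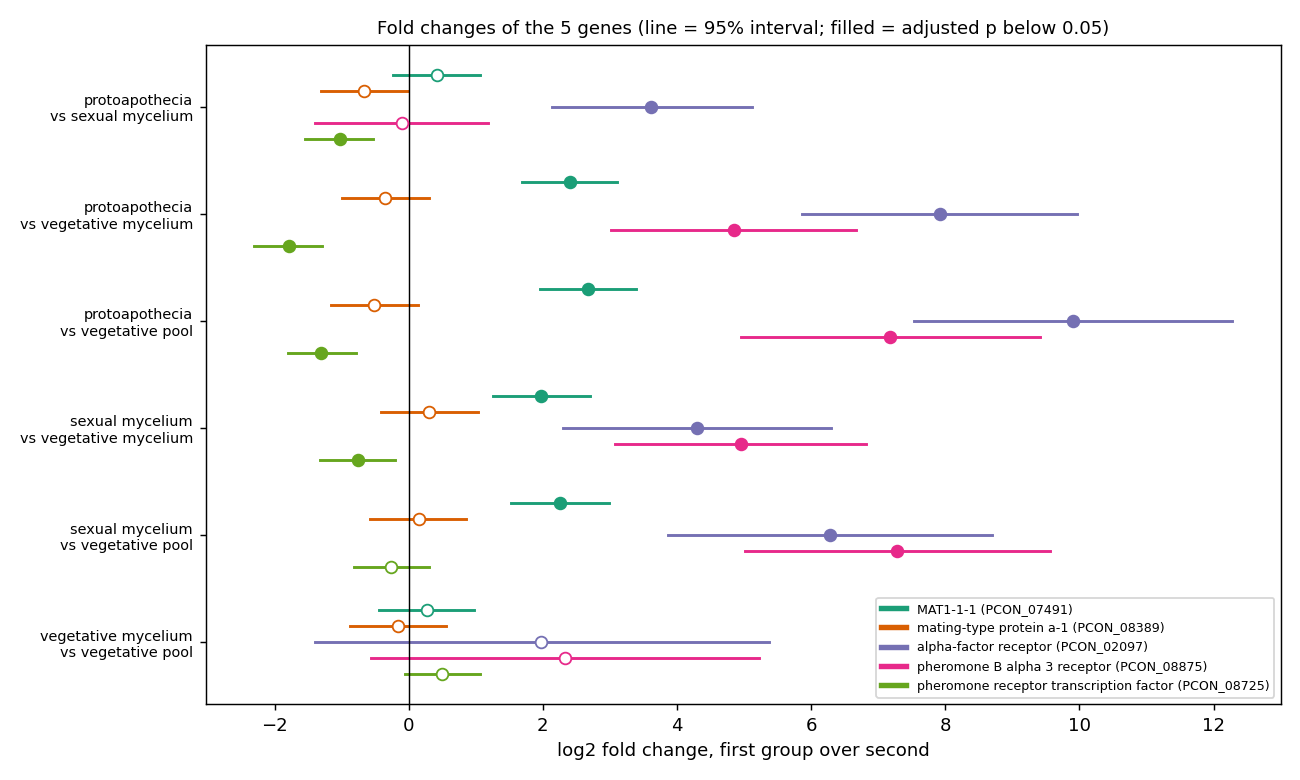
Log2 fold change of each gene (x axis, first group over second) in each of the 6 comparisons (y axis), from edgeR. Lines are 95% intervals, filled points passed an adjusted p of 0.05, and fitted values of the receptor genes against the vegetative groups rest on at most 5 counts in the lower group. The alpha-factor receptor and the transcription factor gene are filled in protoapothecia against sexual mycelium, and no point is filled between the vegetative groups.

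The counts of called genes are read against the share of all tested genes called in the same comparison, since protoapothecia differed from mycelium in most genes. Protoapothecia against sexual mycelium called 2 of the 5 genes, against 61.2% of all genes tested. Protoapothecia against vegetative mycelium called 4 of 5 (69.3% of all genes), and protoapothecia against the pool 4 of 5 (69.1%). Sexual against vegetative mycelium called 4 of 5 (29.6%), and sexual mycelium against the pool 3 of 5 (29.3%). Vegetative mycelium against the pool called 0 of 5 (5.2%), with 0 at an unadjusted p below 0.05 in edgeR and 0 called by DESeq2; the transcription factor gene was called there when only these 4 libraries were fitted. MAT1-1-1 and both receptors were higher in all 4 comparisons of protoapothecia or sexual mycelium with a vegetative group. In these, 36.4%, 34.8%, 20.6% and 19.8% of all genes tested were called higher (protoapothecia against vegetative mycelium and pool, then sexual mycelium against the same). These comparisons share libraries. Libraries of the groups did not overlap for 2 of 5 genes in protoapothecia against sexual mycelium (73% of all genes tested), 4 of 5 against vegetative mycelium (78.8%) and 5 of 5 against the pool (77.2%). They did not overlap for 4 of 5 in sexual against vegetative mycelium (75.4%), 3 of 5 in sexual mycelium against the pool (72.6%) and 4 of 5 in vegetative mycelium against the pool (59%). With so few libraries, most genes of the genome showed no overlap in each comparison.

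In the authors' deposited table, which gives a call per gene and comparison, the alpha-factor receptor was called higher in protoapothecia than in sexual mycelium and in both of these than in each vegetative group. The authors' deposited table called MAT1-1-1 and the B alpha 3 receptor higher in protoapothecia and in sexual mycelium than in both vegetative groups, and not between protoapothecia and sexual mycelium. The authors' deposited table called the a-1 gene in none of the 6 comparisons. The transcription factor gene was called lower in the authors' deposited table only in protoapothecia against vegetative mycelium. Of all 13369 genes, the authors' deposited table called 42.6% in protoapothecia against sexual mycelium, 49.2% in protoapothecia against vegetative mycelium and 49.9% in protoapothecia against the pool. It called 27.2% in sexual against vegetative mycelium, 27.7% in sexual mycelium against the pool and 9.7% between the vegetative groups. A stringent set of calls in the authors' deposited table differed from these in 2 entries for the 5 genes: MAT1-1-1 was not called in sexual against vegetative mycelium, and the transcription factor gene was called nowhere. The stringent set in the authors' deposited table called 26.2% of all genes in protoapothecia against sexual mycelium, 34.8% against vegetative mycelium and 35.5% against the pool. It called 20.9% in sexual against vegetative mycelium, 21% in sexual mycelium against the pool and 5.3% between the vegetative groups.

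Across the 9 libraries, MAT1-1-1 and both receptors ran close together. Pearson's r of log2 CPM was 0.95 between MAT1-1-1 and the B alpha 3 receptor, 0.93 between MAT1-1-1 and the alpha-factor receptor and 0.88 between the receptors. The a-1 gene had r of -0.51 to -0.22 with these 3, and the transcription factor gene -0.88 to -0.67. The 9 points fall into 4 groups that share preparation, so these values describe group patterns and carry no test.

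The described genes most like each member were found by the same measure over the 9 libraries. Nearest to MAT1-1-1 were the F-box protein gene PCON_09442 (r = 0.9866), the kinesin gene PCON_11663 (0.9825) and the mitochondrial carrier gene PCON_01682 (0.9822). Nearest to a-1 were the Mediator subunit 18 gene PCON_03527 (0.9427), the methyltransferase-like gene PCON_02735 (0.9390) and the ankyrin repeat gene PCON_14090 (0.9322). Nearest to the alpha-factor receptor were the sterol uptake control protein gene PCON_05541 (0.9907), which averaged 289 CPM in protoapothecia, 24.3 in sexual mycelium, 0.556 in vegetative mycelium and 0.24 in the pool, then the catechol O-methyltransferase gene PCON_03345 (0.9901) and the benzoate 4-monooxygenase gene PCON_08024 (0.9896). Nearest to the B alpha 3 receptor were the two-component system gene PCON_02714 (0.9877), PCON_01682 (0.9811) and PCON_02619 (0.9804), described as the Schizosaccharomyces pombe transcription factor ste11, an HMG-box activator of mating genes in that yeast. Nearest to the transcription factor gene were the ribose-phosphate pyrophosphokinase gene PCON_10569 (0.9904), PCON_04416, similar to a yeast activator of stress genes (0.9826), and the kinase gene PCON_03203 (0.9814). These genes were ranked among the 5503 with a described product. Among all genes tested, described or not, 533 had an r above 0.95 with MAT1-1-1, 499 with the alpha-factor receptor, 344 with the B alpha 3 receptor, 252 with the transcription factor gene and 1 with a-1. The counts depend on the measure: with Spearman's rho above 0.95 they were 38, 115, 49, 72 and 0 in the same order.

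The ste11-like gene PCON_02619 is also an HMG-box model, like a-1, but had another pattern. It had 59.5, 7.7 and 39.7 CPM in protoapothecia A, B and C, 14.9 and 17.5 CPM in sexual mycelium and at most 0.645 CPM in the 4 vegetative libraries. Protoapothecia spread to both sides of sexual mycelium, and both lay above the vegetative libraries. Its log2 fold change was 1.15 in protoapothecia against sexual mycelium, which did not pass (edgeR adjusted p = 0.153), and 5.99 against vegetative mycelium (edgeR adjusted p = 0.000256). In sexual against vegetative mycelium it was 4.84 (edgeR adjusted p = 0.00263). Of the 7 HMG-box models other than a-1, 4 were higher and 0 lower in protoapothecia than in sexual mycelium, a comparison in which 26.7% of all genes tested were called higher and 34.5% lower. Their log2 fold changes had a median of 1.05 beside a median of -0.139 over all genes tested. Among them were genes similar to the chromatin proteins Nhp6 (PCON_12221, 1990 CPM in protoapothecia and 677 CPM in sexual mycelium) and HMG-T (PCON_12239, 293 and 139 CPM). The other model with a MADS-box domain, PCON_09170, similar to the yeast factor Smp1, fell to 42.1 CPM in protoapothecia, against 161 CPM in sexual mycelium (log2 fold change -1.94, edgeR adjusted p = 3.49e-05).

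Of 5 genes for G protein subunits, which relay receptor activation, 3 were higher and 0 lower in protoapothecia than in sexual mycelium. The median log2 fold change of these 5 was 0.70. For comparison, 26.7% of all genes tested were called higher there and 34.5% lower. The beta subunit gene PCON_14045 had 471 CPM in protoapothecia and 220 CPM in sexual mycelium (1.10, edgeR adjusted p = 0.00438). The alpha-2 subunit gene PCON_07308 had 212 and 81 CPM (1.39, edgeR adjusted p = 0.00521), and PCON_07314, also an alpha subunit, 407 and 250 CPM (0.70, edgeR adjusted p = 0.0362). Against vegetative mycelium, 1 of the 5 was higher (PCON_07308, 1.30, edgeR adjusted p = 0.00607) and 1 lower (the gamma subunit gene PCON_01676, -0.86, edgeR adjusted p = 0.00906). PCON_01676 was chosen after its values were seen. In that comparison edgeR called 69.3% of all genes tested, 36.4% of them all as higher, and DESeq2 called 4 of the 5 subunit genes. In Aspergillus, flbA encodes a regulator that limits G protein signalling. The flbA-like gene PCON_02904 had 119 CPM in protoapothecia and 71.6 CPM in sexual mycelium, and was called higher (edgeR adjusted p = 0.0379).

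Of 12 genes for MAP kinase cascades and cell polarity, 8 were lower and 2 higher in protoapothecia than in sexual mycelium. Their median log2 fold change was -1.76. The shares of all genes tested called in this comparison were 34.5% lower and 26.7% higher. The Ste50-like adaptor gene PCON_08369 had 2.75 CPM in protoapothecia and 15.4 CPM in sexual mycelium (-2.49, edgeR adjusted p = 0.000133). The Far1-like gene PCON_02780, named after a yeast inhibitor that arrests the cell cycle in response to pheromone, had 19.7 and 90.6 CPM (-2.21, edgeR adjusted p = 7.48e-05). The Ste11-like kinase gene PCON_03982, outside the naming rule and chosen after its values were seen, had 50.1 and 112 CPM (-1.15, edgeR adjusted p = 0.00116). The wis4-like gene PCON_12698, a stress kinase in Schizosaccharomyces pombe, had 16.1 and 84.1 CPM (-2.41, edgeR adjusted p = 0.000109), and the pek1-like gene PCON_03568, of the cell integrity cascade of that yeast, was higher, with 677 and 171 CPM (1.98, edgeR adjusted p = 0.000137). The list thus holds kinases of stress and cell wall cascades beside those of pheromone response. In sexual against vegetative mycelium, 0 of these 12 genes were called in edgeR, with 1 at an unadjusted p below 0.05 and 0 called by DESeq2. The share of all genes tested that edgeR called there was 29.6%.

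Of 4 genes described as steA, the Aspergillus form of Ste12, 0 were higher and 2 lower in protoapothecia than in sexual mycelium. Beside these stand 26.7% of all genes tested called higher and 34.5% called lower. PCON_01154 had 6.44 CPM in protoapothecia and 45.2 CPM in sexual mycelium (-2.78, edgeR adjusted p = 6.03e-05), and PCON_08484 had 7.97 and 17.8 CPM (-1.17, edgeR adjusted p = 0.00335). The other 2 were not called in edgeR: PCON_08877 (-0.60, edgeR adjusted p = 0.144), the 1 model of 13369 with the Pfam STE domain of Ste12-type factors, and PCON_10415 (0.56, edgeR adjusted p = 0.116). Both genes that were lower thus lack that domain. The median of the 4 was -0.89, and DESeq2 called 3 of the 4.

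Of 10 genes for pheromone maturation and export, 3 were higher and 3 lower in protoapothecia than in sexual mycelium, close to the shares of all genes tested (26.7% higher and 34.5% lower). Their median log2 fold change was 0.29. The exporter gene PCON_02811, similar to mam1, which secretes the lipid-modified mating factor of Schizosaccharomyces pombe, had 118, 112 and 78.9 CPM in protoapothecia A, B and C, against 9.26 and 9.45 CPM in sexual mycelium. The groups did not overlap (3.46, edgeR adjusted p = 2.6e-05), and the 4 vegetative libraries had 8.65 to 19.1 CPM. The farnesyltransferase beta subunit gene PCON_08707, for the enzyme that attaches the lipid to such peptides, had 179 CPM in protoapothecia and 72.9 CPM in sexual mycelium (1.29, edgeR adjusted p = 0.00241). The dipeptidyl-aminopeptidase gene PCON_08200 had 10.8 and 103 CPM (-3.27, edgeR adjusted p = 1.41e-05), and PCON_13110, described as the processing protease KEX1, 8.76 and 39.9 CPM (-2.19, edgeR adjusted p = 0.000194).

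Among 3 genes for cell and nuclear fusion, 1 was higher and 1 lower in protoapothecia than in sexual mycelium, with a median log2 fold change of -0.62. Shares over all genes tested were 26.7% higher and 34.5% lower. The prm1-like gene PCON_11061, for a protein of plasma membrane fusion in mating cells, had 189, 94.5 and 125 CPM in protoapothecia A, B and C, 58.4 and 61.4 CPM in sexual mycelium and 9.74 to 14 CPM in the 4 vegetative libraries. Those 3 sets of libraries did not overlap. It was called in protoapothecia against sexual mycelium (1.19, edgeR adjusted p = 0.00853) and in sexual against vegetative mycelium (2.36, edgeR adjusted p = 0.000955). The KAR5-like nuclear fusion gene PCON_11222, chosen after its values were seen, averaged 5.08 ± 2.53 CPM in protoapothecia (SD, n = 3) and 7.92 ± 4.49 CPM in sexual mycelium (SD, n = 2), and had at most 0.378 CPM in the vegetative libraries (sexual against vegetative mycelium 5.27, edgeR adjusted p = 0.00161). The KAR9-like gene PCON_02496 had 2.56 CPM in protoapothecia and 23.7 CPM in sexual mycelium (-3.20, edgeR adjusted p = 0.000132).

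**Figure D4:**
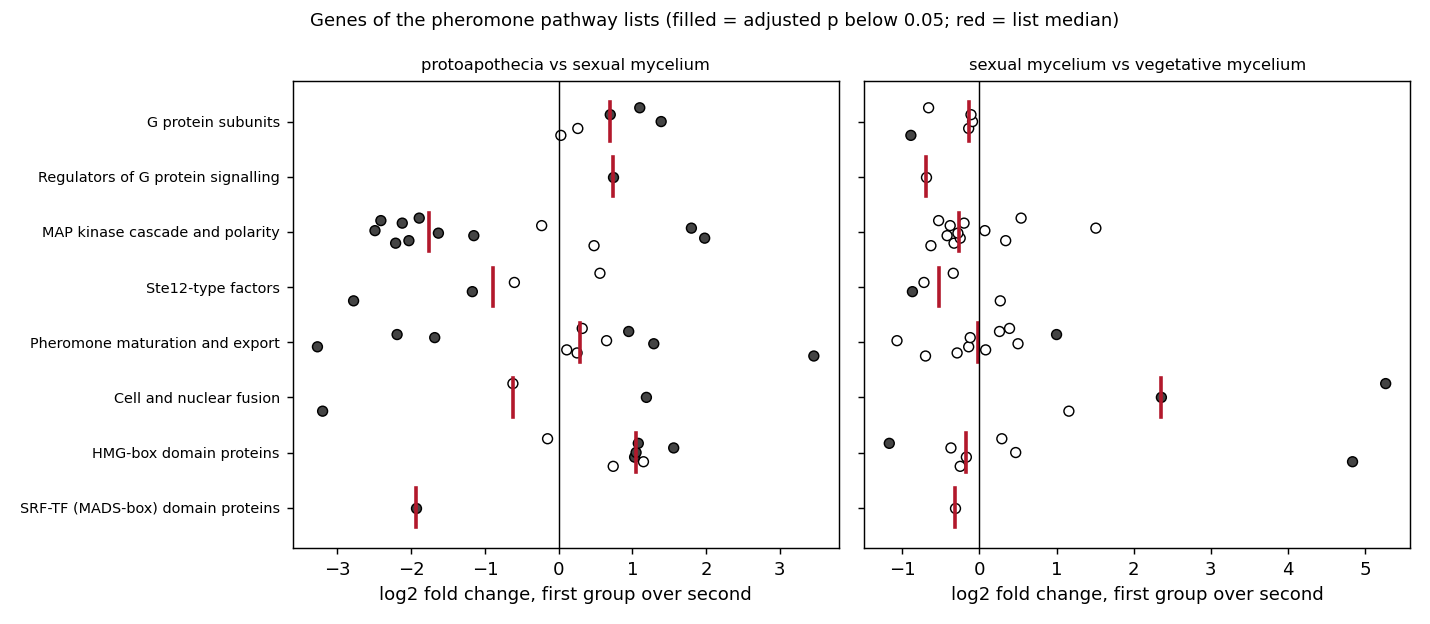
Log2 fold change (x axis, first group over second) of each gene of the pathway lists (y axis), without the 5 genes themselves, in protoapothecia against sexual mycelium (left) and sexual against vegetative mycelium (right). Points are genes, filled where the edgeR adjusted p was below 0.05, and red marks are list medians. On the left, MAP kinase and polarity genes lie mostly below 0 (median -1.76) and G protein subunit genes above 0 (median 0.70). On the right, the 12 MAP kinase and polarity genes are all unfilled, where 29.6% of all genes tested were called.

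The positions of the 5 genes could be set beside those of their neighbours. Levels are given for neighbours chosen with their values known, and for none beside the alpha-factor receptor or the transcription factor gene. In many filamentous ascomycetes the mating-type locus lies near the DNA lyase gene APN2, and PCON_08385, described as such a lyase, lay 9366 bases upstream of a-1 on the same strand, as the fourth model from it, with genes for a Rac1-like GTPase (PCON_08387) and a JmjC domain protein (PCON_08388) between. PCON_08385 had 30.6 CPM in protoapothecia, 35.5 in sexual mycelium, 42.6 in vegetative mycelium and 28.6 in the pool, and was called in none of the 6 comparisons. PCON_08390, of unknown function, lay 986 bases downstream of a-1. It had 5.9 CPM in protoapothecia and 4.41 CPM in sexual mycelium, against 0.718 CPM in vegetative mycelium and 0.707 CPM in the pool, and was called higher in all 4 of these comparisons (log2 fold changes 2.60 to 3.08). Near a-1, PCON_08387, PCON_08391 and PCON_08392 had lower means in protoapothecia (55.5, 2.64 and 28.7 CPM) than in sexual mycelium (158, 11.6 and 130 CPM). PCON_08393, on the same side as PCON_08390, had 38.8 and 32.9 CPM. MAT1-1-1 began 73 bases after the end of PCON_07490 on the same strand. PCON_07490 had 59.7 CPM in protoapothecia, 31.5 in sexual mycelium, 45.2 in vegetative mycelium and 30.6 in the pool. It was called higher in protoapothecia than in sexual mycelium (0.92, edgeR adjusted p = 0.0142) and not called in sexual against vegetative mycelium (-0.52, edgeR adjusted p = 0.219), where MAT1-1-1 was called. Whether reads of 2 models this close were kept apart depends on the counting, which is not given in the sources used here.

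The B alpha 3 receptor gene lay 8140 bases from PCON_08877, the steA model with the STE domain, with PCON_08876 between them. PCON_08877 had 248 CPM in protoapothecia, 378 in sexual mycelium, 622 in vegetative mycelium and 460 in the pool, and was called lower in protoapothecia than in vegetative mycelium (-1.32, edgeR adjusted p = 0.00599) and than in the pool (-0.89, edgeR adjusted p = 0.038). PCON_08876, of unknown function, had 16.1 CPM in protoapothecia, against 1.63 in sexual mycelium, 0.198 in vegetative mycelium and 0.521 in the pool, and was called higher in protoapothecia in all 3 comparisons.

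**Figure D5:**
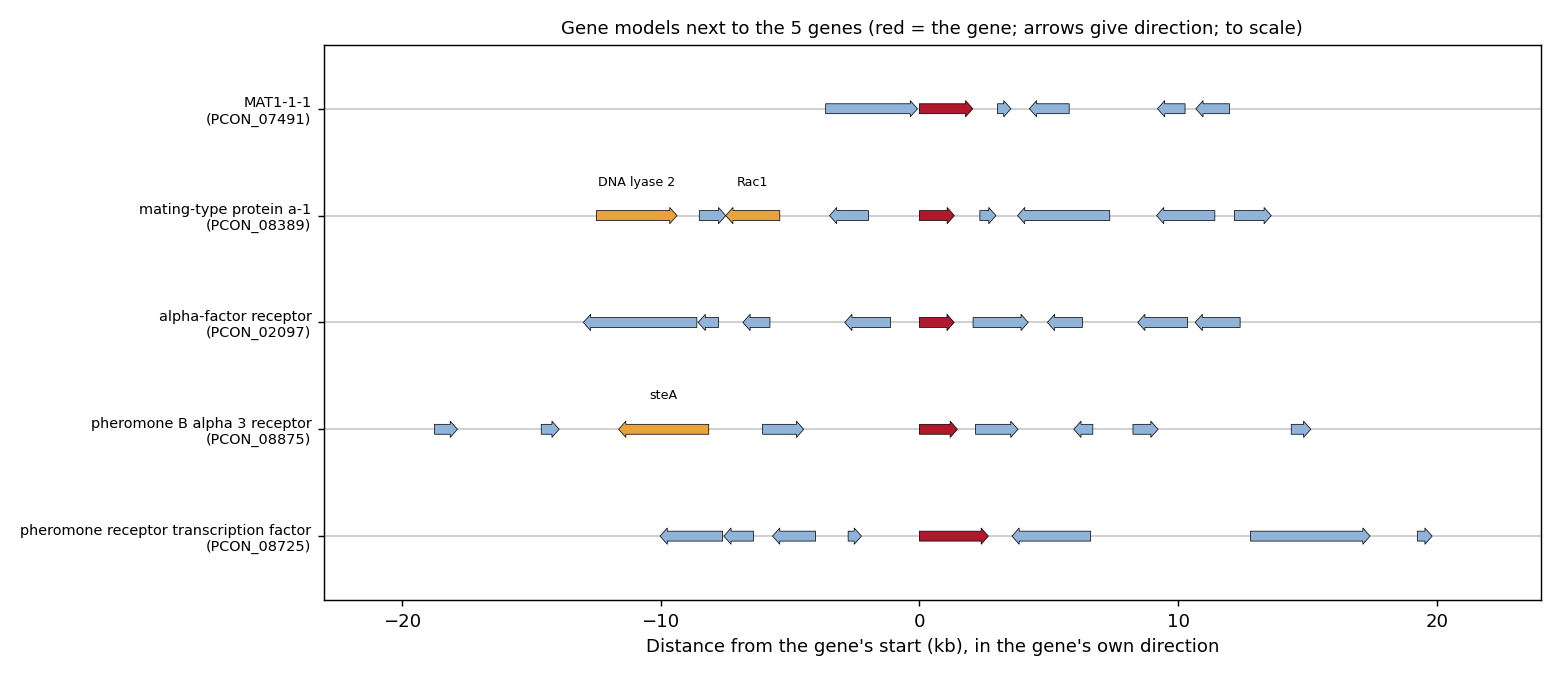
Gene models beside each of the 5 genes (red), drawn to scale by distance in kb from the start of that gene (x axis, in its own direction), in 1 row per gene. Arrows give the strand relative to the gene, and orange marks the DNA lyase 2 and Rac1-like models near a-1 and the steA model near the B alpha 3 receptor.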

How the data were processed

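Groups came from sample titles and descriptions, and the columns of the 1 deposited table were assigned by name; 0 columns of per-sample values lay outside the 9 libraries. The authors deposited raw read counts per gene model without normalization, per the file headers, with model lengths and consensus calls given as a score of -1, 0 or 1. The submitters' processing notes name CASAVA 1.8.2 and DESeq. For the aligner, counter, genome build and use of strand, nothing was given in the sources used here. Coordinates are those of the deposited table, which matched the start and end of 5 of 5 genes in the RefSeq table.

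The 5 genes and the lists were chosen with earlier results of these data known. Lists were patterns on product descriptions, with matches naming another protein left out after reading the descriptions, and the HMG-box and MADS-box lists were taken from the annotation's Pfam column after the table was seen. The rule for naming list genes was a call in protoapothecia against sexual mycelium, no overlap of libraries and at least 10 CPM in the higher group. Up to 4 per list were named by smallest p. Any other list gene or neighbouring gene named here lies outside this rule and was chosen with its values known. A list of genes that often lie near mating-type loci had 3 tested members, 1 of them higher in protoapothecia than in sexual mycelium (the anaphase-promoting complex subunit 5 gene PCON_13811, 247 and 45.3 CPM). There, 26.7% of all genes tested were called higher.

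Counts were fitted with edgeR 4.0.16 (limma 3.58.1, R 4.3.3): filterByExpr (minimum count 10, minimum total 15) kept 11787 genes, libraries were scaled by TMM, and 1 robust quasi-likelihood fit over 4 groups (5 residual degrees of freedom) gave 6 two-sided comparisons with Benjamini-Hochberg adjustment over all genes tested. Log2 CPM for likeness used a prior count of 2. Exact counting intervals were at 95%. Likeness was compared over 5503 genes with a described product and no overlapping model. A difference that did not pass was not shown to be absent. On simulated data the fit missed most 2-fold changes. Fewer genes changed there than were called here, so that share does not carry over to these data. Alternatives were RLE scaling, no filter, DESeq2 1.42.0, only the groups compared, a replicate block, and each library left out. Replicates of a group differed by more than sampling noise (lowest chi-square per degree of freedom 23.8), so none was taken for a repeat deposit of another. No markers of protoapothecia were used to check the labelled tissue.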

Additional observations from a re-analysis of the deposited data

How the results depend on the processing

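Of the 30 fold changes of the 5 genes, those called with an adjusted p below 0.05 in the main analysis kept their call and direction in all 14 alternatives, except the transcription factor gene in sexual against vegetative mycelium (called in 5 of 14; -0.77 and lost with the replicate block, -0.75 and lost without the filter). Fold changes that were not called and turned in sign were the B alpha 3 receptor in protoapothecia against sexual mycelium (0.04 with RLE scaling, 0.03 with DESeq2, 0 with only the groups compared, and -0.32 to 0.27 with each library left out, positive without protoapothecia B), the a-1 gene in sexual mycelium against vegetative mycelium (-0.02 to 0.58 with each library left out) and against the pool (-0.18 to 0.41), both negative without sexual mycelium 1, and the alpha-factor receptor in vegetative mycelium against the pool (-2.33 to 4.31, negative without vegetative mycelium 2, which held its 4 counts). The a-1 gene was called with 1 library left out in protoapothecia against sexual mycelium and against the pool. Between the vegetative groups, 613 genes were called, against 1233 with DESeq2, 1677 and 1 of the 5 genes with only the groups compared, and 348 with the replicate block. Leaving out each library gave 2291 to 4268 genes called in sexual against vegetative mycelium, 2279 to 4218 in sexual mycelium against the pool and 79 to 874 between the vegetative groups; the count of the 5 genes called ran from 2 to 3 and from 4 to 4 and 4 to 5 in protoapothecia against sexual mycelium, vegetative mycelium and the pool, from 3 to 4 and 3 to 3 in sexual mycelium against these, and was 0 between the vegetative groups. The cause was not tested. Replicate numbers were not shown to pair the mycelium libraries (correlations of deviations 0.119, -0.157 and -0.043). RLE scaling moved the median log2 fold change of all genes to 0.034, against -0.139 with TMM, in protoapothecia against sexual mycelium, to 0.267 (TMM 0.154) against vegetative mycelium and to 0.227 (TMM 0.048) against the pool. With a prior count of 0.5 or Spearman's rho, other genes were most like 3 and 5 of the 5 members. The receptor genes had at most 4 counts per library in the vegetative groups, so their fold changes against those groups rest on few counts.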
